A study of Vitis vinifera and Vitis x champinii x Vitis riparia and Vitis cinerea var. helleri x Vitis rupestris with 22 samples.

Results

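In roots of grapevine treated with salt, 122 of the 26241 genes on a custom array had lower values than under control conditions in 140 Ruggeri and Cabernet Sauvignon, whereas K51-40 showed no such decrease. They were chosen on the deposited processed log2 values, averaged over all spots of a gene. The mean of the salt arrays minus the mean of the control arrays had to be -0.5 or less in Cabernet Sauvignon, -0.3 or less in 140 Ruggeri and above -0.1 in K51-40. Over all genes, 1.29%, 3.51% and 77.5% met the limit for Cabernet Sauvignon, 140 Ruggeri and K51-40, and 0.735% met both limits on a decrease. A total of 126 genes met all 3 limits, and 4 of them were left out by name. Because these differences chose the genes, they are given below as a description, without a test.

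The 6 groups were roots of Cabernet Sauvignon (Vitis vinifera), 140 Ruggeri (a hybrid of Vitis berlandieri and Vitis rupestris) and K51-40 (a hybrid of Vitis champinii and Vitis riparia), each after 4 days in nutrient solution with 50 mM Cl- (salt) or without this addition (control). The plants were rooted leaves, single leaves that have formed roots, so that the root system had no woody stem above it. They were grown in hydroponic solution for 2 weeks before the treatment, and the roots of 4 such plants were pooled for each array. There were 4 salt and 4 control arrays for Cabernet Sauvignon, 3 and 3 for 140 Ruggeri, and 4 and 4 for K51-40. All values below are log2 values, so that a difference of -1 is a halving.

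The 3 varieties differ in how much Cl- reaches the shoot. 140 Ruggeri is known as a rootstock that keeps Cl- out of the shoot, K51-40 as one that lets it through, and Cabernet Sauvignon as intermediate. Among the annotated genes of the set are those of jasmonate synthesis, which plant cells use to signal wounding and stress, and those of the electron transport chains in mitochondria and plastids. Plant mitochondria and plastids have genomes of their own, and stretches of these genomes also occur as copies in nuclear chromosomes.

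Array brightness has to be given first, because it moved with these genes. The median scanner intensity of the array was 232.5, 303.5, 462 and 291 units for salt and 124, 227, 149.5 and 289 units for control in Cabernet Sauvignon. It was 226.5, 161 and 212 units for salt against 139, 105.5 and 172 units for control in 140 Ruggeri, and 106, 126.5, 245 and 194 units for salt against 131, 225, 240 and 186.5 units for control in K51-40. Salt arrays were thus brighter on average than control arrays in the same 2 varieties in which the genes were lower. The deposited values had been quantile normalized, so that the arrays shared 1 distribution of values. The scanner file labelled Cabernet Sauvignon control 3 resembled the processed values of K51-40 control 1 (r = 0.989 across spots) more than its own processed column (r = 0.93), and it was left out wherever intensity was used.

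The median of the 122 genes on each array was 8.50, 8.45, 7.89 and 8.73 for salt, against 9.30, 8.84, 9.23 and 8.89 for control in Cabernet Sauvignon. It was 8.44, 8.91 and 8.83 for salt against 8.96, 9.67 and 8.99 for control in 140 Ruggeri. In K51-40 it was 9.29, 8.97, 8.70 and 9.38 for salt and 9.11, 8.66, 8.90 and 9.42 for control. All salt arrays of Cabernet Sauvignon and of 140 Ruggeri thus lay below all control arrays of the same variety, whereas the groups of K51-40 overlapped over their whole range. Over the genes, the salt difference had a median of -0.62 (lowest -1.39) in Cabernet Sauvignon, -0.47 (lowest -1.12) in 140 Ruggeri and 0.05 (from -0.09 to 1.19) in K51-40, while over all 26241 genes the medians were 0.00, 0.00 and 0.01. In a pooled root sample, fewer cells of a type and less RNA per cell cannot be told apart.

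**Figure D1:**
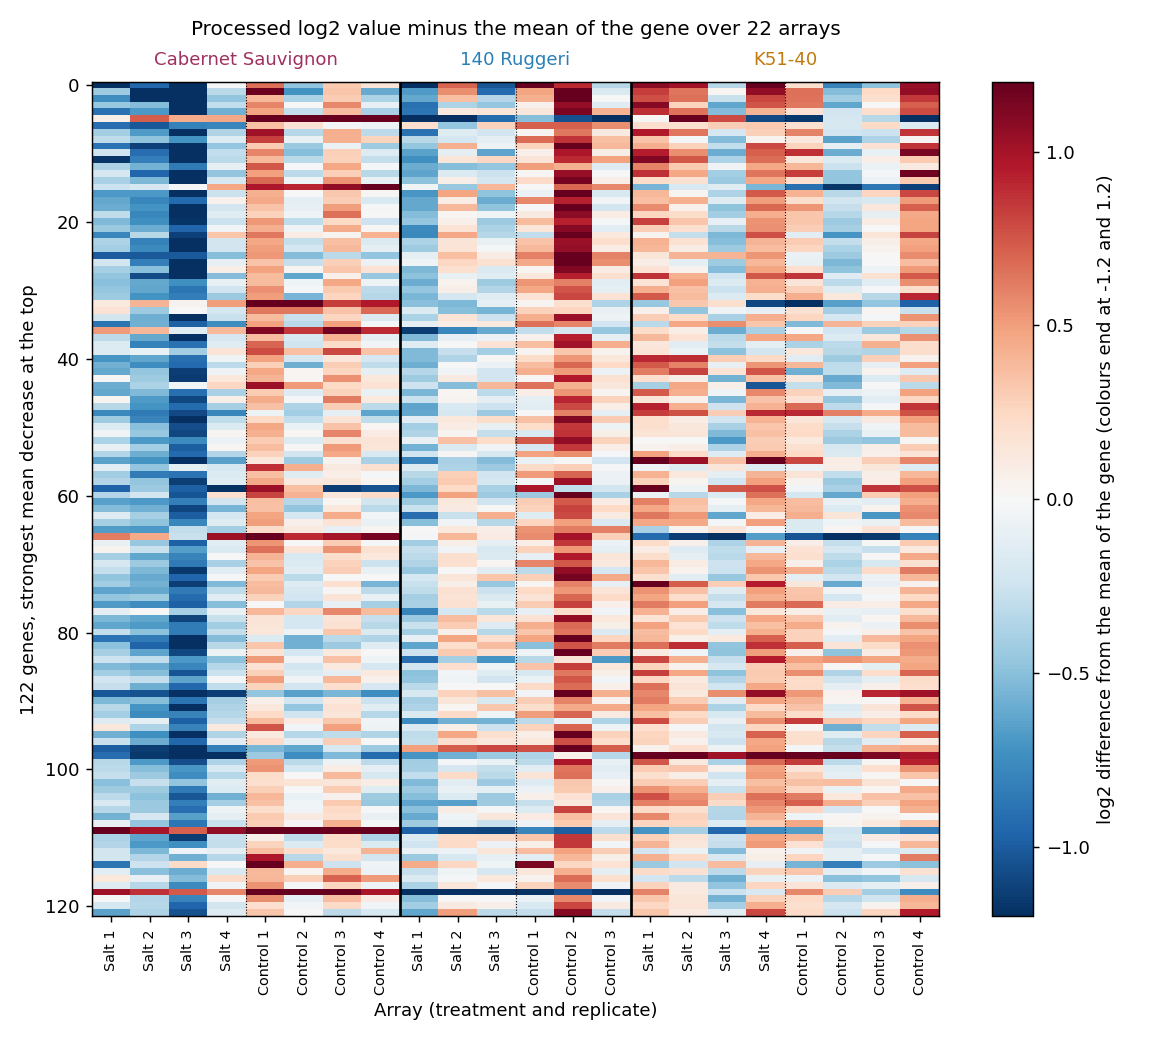
Each row is 1 of the 122 genes and each column 1 of the 22 arrays, grouped by variety with salt left of control. The colour gives the processed log2 value minus the mean of that gene over all arrays. The array of Cabernet Sauvignon salt 3 is blue in most rows, with a median of 7.89, and that of 140 Ruggeri control 2 is red in most rows, with a median of 9.67.

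A pair of arrays stood apart. Cabernet Sauvignon salt 3, the brightest array, was the lowest of the 4 salt arrays of its group for 110 of the 122 genes. 140 Ruggeri control 2, the dimmest array, was the highest of the 3 control arrays for 112 genes. The rule favours genes with a very low salt array or a very high control array in these varieties. The shares over all genes are not at hand, so nothing is read from the counts of 110 and 112. Without Cabernet Sauvignon salt 3 the median salt difference in that variety was -0.49, and 56 genes were still at -0.5 or less. Without 140 Ruggeri control 2 the median in 140 Ruggeri was -0.30, and 60 genes were still at -0.3 or less. In these settings 122 and 118 of the genes kept a difference below 0. Without Cabernet Sauvignon control 3, the array with the unlike scanner file, the median in that variety was -0.57, and 95 genes were still at -0.5 or less.

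The genes also moved together among arrays of the same group. The mean Pearson r between pairs of the 122 genes, taken on deviations from the group means, was 0.60, against 0.00023 between pairs of all genes. Quantile normalization gives every array the same distribution, which holds the value for all genes near 0. It is therefore no measure of how unusual 0.60 is. A single component held 69.5% of the variation of the 122 genes. The deviation of their median from the group mean ran against the log2 intensity of the array, with r = -0.66 and Spearman's rho = -0.66 over 21 arrays, and r = -0.62 without the 2 arrays farthest from the middle. Without removing the group means, r was -0.80 over the 21 arrays and -0.65 without the 2 of extreme intensity, 140 Ruggeri control 2 and Cabernet Sauvignon salt 3. Within a variety r was -0.88 in Cabernet Sauvignon (7 arrays), -0.92 in 140 Ruggeri (6 arrays) and -0.48 in K51-40 (8 arrays). The r without removing the group means and those within a variety also hold the salt differences that the rule chose, so nothing is read from their size. All these arrays share slides and scan dates, so the values of r are given as a description. Gene by gene, r with intensity within groups had a median of -0.68 for the 122 genes and 0.01 for all genes. The normalization tends to hold this median of all genes near 0 too. The r was under -0.5 for 97 of the 122 genes, or 79.5%, whereas 8.96% of all genes had such a value.

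**Figure D2:**
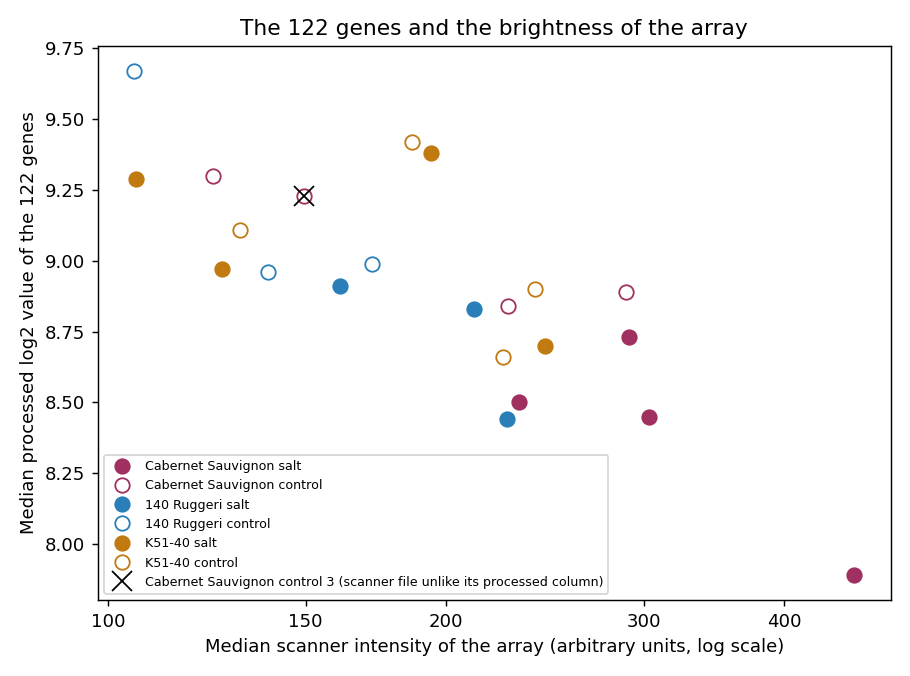
Each point is 1 array, placed by its median scanner intensity (log scale, arbitrary units) and by the median processed log2 value of the 122 genes, with filled points for salt and open points for control. The genes are low on bright arrays, down to 7.89 at an intensity of 462, and high on dim ones, up to 9.67 at 105.5; the crossed point is Cabernet Sauvignon control 3, which was left out of the correlations.

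With log2 intensity as a term of the fit, over 21 arrays, the median salt difference of the genes was -0.26 in Cabernet Sauvignon, -0.23 in 140 Ruggeri and -0.07 in K51-40. With this term, the difference was below 0 for 120 genes in Cabernet Sauvignon, for 118 in 140 Ruggeri and for 88 in K51-40. Only 11 of the 122 still met all 3 limits. The part of brightness in the salt differences was not tested.

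**Figure D3:**
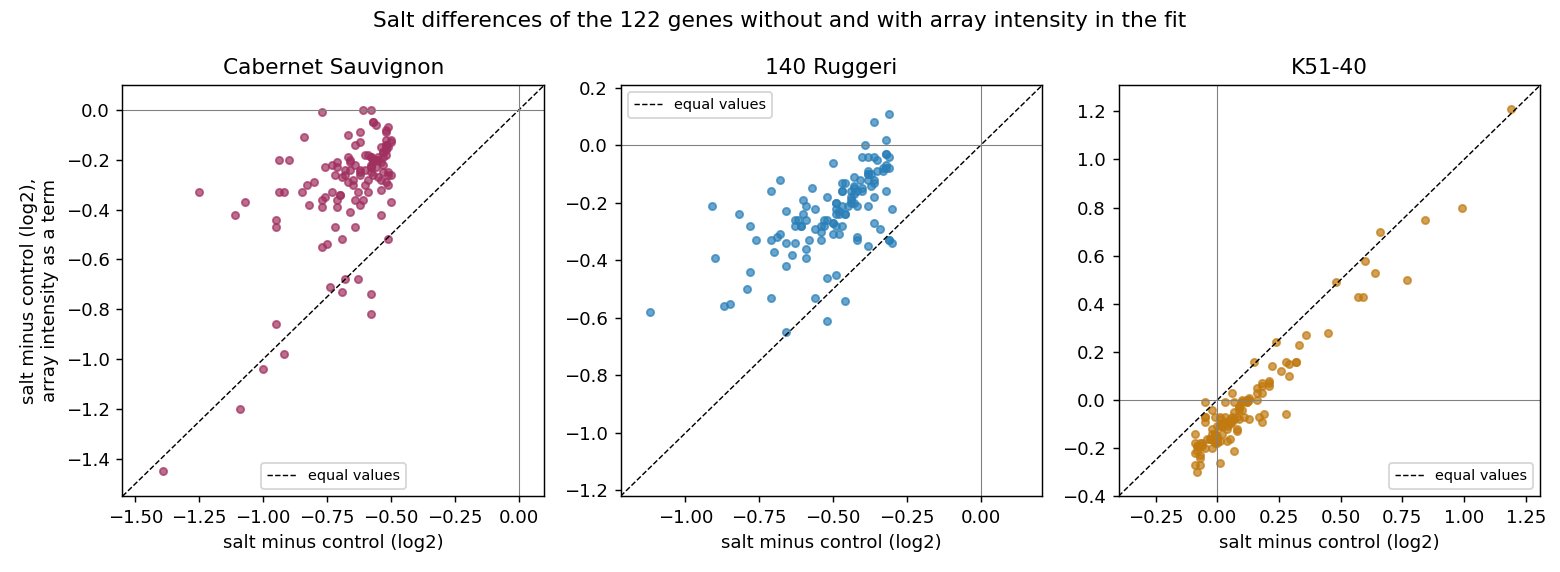
Salt minus control (log2) of each of the 122 genes without (x axis) and with (y axis) the array's log2 intensity in the fit, for Cabernet Sauvignon, 140 Ruggeri and K51-40. Most points of Cabernet Sauvignon and 140 Ruggeri lie above the dashed line of equal values, with medians of -0.26 and -0.23 on the y axis, while a few genes of Cabernet Sauvignon, down to -1.45, stay on it.

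The 11 genes that met the limits with and without the term were singled out after their values were seen. Ferric reduction oxidase 4 (GSVIVT01028873001, locus VIT_16s0050g00990 on chromosome 16) is named for enzymes that reduce ferric iron at membranes so that it can be taken up. It had values of 11.81, 11.71, 11.91 and 11.94 on salt arrays, against 13.08, 12.90, 12.71 and 12.67 on control arrays in Cabernet Sauvignon. In 140 Ruggeri it had 12.93, 12.26 and 13.00 for salt and 13.44, 13.44 and 13.28 for control. In K51-40 it had 12.93, 12.92, 13.02 and 13.04 for salt and 12.91, 12.53, 12.96 and 12.56 for control. The groups did not overlap in Cabernet Sauvignon and 140 Ruggeri and did overlap in K51-40. The salt difference of ferric reduction oxidase 4 was -1.0, -0.66 and 0.24 across Cabernet Sauvignon, 140 Ruggeri and K51-40. Its r with intensity was -0.01, and without the salt 3 and control 2 arrays named above its differences were -1.02 in Cabernet Sauvignon and -0.63 in 140 Ruggeri.

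The gene with the lowest salt difference in Cabernet Sauvignon and the highest in K51-40 was annotated only as an EF hand protein (GSVIVT01030393001, VIT_12s0059g00420, chromosome 12). EF hands are loops that bind calcium, and proteins that carry them often serve as calcium sensors. Its values in Cabernet Sauvignon were 12.39, 13.05, 12.77 and 12.79 for salt, against 14.36, 14.27, 14.03 and 13.88 for control. In 140 Ruggeri they were 11.03, 10.84 and 11.40 for salt and 11.81, 11.27 and 11.11 for control, and in K51-40 they were 12.34, 13.75, 13.11 and 11.24 for salt and 11.17, 12.12, 11.99 and 10.40 for control. Only in Cabernet Sauvignon were the groups apart, and the K51-40 arrays ranged widely within each group. The salt difference of the EF hand gene was -1.39, -0.31 and 1.19 for these varieties in that order. Its r with intensity was 0.04.

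Urophorphyrin III methylase (GSVIVT01032030001, VIT_13s0064g01470, chromosome 13) belongs to the branch of tetrapyrrole synthesis that leads to sirohaem, the cofactor of sulphite and nitrite reductases. Its values lay between 10.68 and 11.07 for salt, against 11.27 to 11.59 for control, in Cabernet Sauvignon. In 140 Ruggeri they were 11.37, 11.49 and 11.45 for salt against 11.91, 11.98 and 11.97 for control. Both pairs of groups were apart, with narrow spreads in 140 Ruggeri. In K51-40 the salt arrays had 10.98, 11.41, 11.52 and 11.36 and the control arrays 11.20, 11.40, 11.54 and 11.34, which overlap. The salt differences of this gene were -0.58, -0.52 and -0.05 in the same order of varieties, and its r with intensity, 0.47, was the highest of the set.

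Alanine--glyoxylate aminotransferase (GSVIVT01030227001, VIT_08s0058g00930), an enzyme that transfers an amino group from alanine to glyoxylate and is annotated as mitochondrial, had salt differences of -0.69 in Cabernet Sauvignon, -0.56 in 140 Ruggeri and -0.02 in K51-40. The Unc51-like kinase (GSVIVT01022729001, VIT_02s0033g00900), of a kinase family known for starting autophagy, had -0.51, -0.38 and -0.05. In both genes the salt and control arrays were apart in Cabernet Sauvignon and 140 Ruggeri, and r with intensity was -0.12 and -0.15. The other genes of the 11 carried no informative annotation. Of these, GSVIVT01025734001 had salt differences of -0.63, -0.49 and -0.05, and its groups were likewise apart in Cabernet Sauvignon and 140 Ruggeri. GSVIVT01013153001 (VIT_02s0012g01350) had 11.89, 11.95, 12.13 and 12.61 for salt and 13.12, 13.06, 13.21 and 13.56 for control in Cabernet Sauvignon. In K51-40 the lowest salt array had 11.59, against 11.28 for the highest control array, so that the groups of both varieties were apart, in opposite directions. GSVIVT01008923001 had salt differences of -0.69, -0.71 and 0.36, GSVIVT01012018001 had -0.68, -0.52 and 0.06, and GSVIVT01032884001 had -0.58, -0.30 and 0.48. GSVIVT01036145001 had -0.95, -0.31 and 0.15, but its 2 probes disagreed in 140 Ruggeri, with 0.20 and -0.81.

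Among genes that followed intensity, 2 enzymes of jasmonate synthesis stood near the top of the set. Lipoxygenases add oxygen to fatty acids, and allene oxide synthase turns a product of that step into the precursor of jasmonate. Allene oxide synthase (GSVIVT01037330001, VIT_03s0063g01830, chromosome 3) had 15.01, 13.59, 13.22 and 15.11 for salt and 16.61, 14.72, 15.77 and 14.83 for control in Cabernet Sauvignon, and 14.76, 15.99 and 14.50 for salt and 15.91, 16.81 and 15.26 for control in 140 Ruggeri. In K51-40 it had 16.27, 16.08, 15.46 and 16.50 for salt and 16.10, 14.92, 15.68 and 16.50 for control. The groups overlapped in every variety, and 1 control array of 140 Ruggeri gave the highest value of any of the 122 genes. Between arrays of the same number, which the labels do not pair, salt minus control was -1.15, -0.82 and -0.75 in 140 Ruggeri. It was -1.60, -1.13, -2.55 and 0.29 in Cabernet Sauvignon and lay between -0.22 and 1.16 in K51-40. The rule used these arrays, so nothing is read from the signs. The salt differences of allene oxide synthase were -1.25, -0.91 and 0.28, and those with the intensity term were -0.33, -0.21 and -0.06. Its 2 probes gave -0.90 and -1.59 in Cabernet Sauvignon, on the same side but of unequal size. Without the salt 3 array of Cabernet Sauvignon the difference was -0.91, and without the control 2 array of 140 Ruggeri it was -0.50.

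Lipoxygenase (GSVIVT01025327001, VIT_14s0128g00780, chromosome 14) had 7.76, 7.97, 7.22 and 8.08 for salt and 9.13, 8.37, 9.03 and 8.27 for control in Cabernet Sauvignon. In 140 Ruggeri it had 7.79, 8.78 and 8.80 for salt and 8.79, 9.79 and 9.08 for control, and in K51-40 it had 9.54, 9.31, 8.14 and 9.07 for salt and 8.83, 8.43, 8.86 and 9.44 for control. Its groups were apart in Cabernet Sauvignon alone. The salt differences of lipoxygenase were -0.94, -0.76 and 0.13, and those with the intensity term were -0.33, -0.33 and -0.08. Its r with intensity was -0.72, near that of allene oxide synthase, -0.74.

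**Figure D4:**
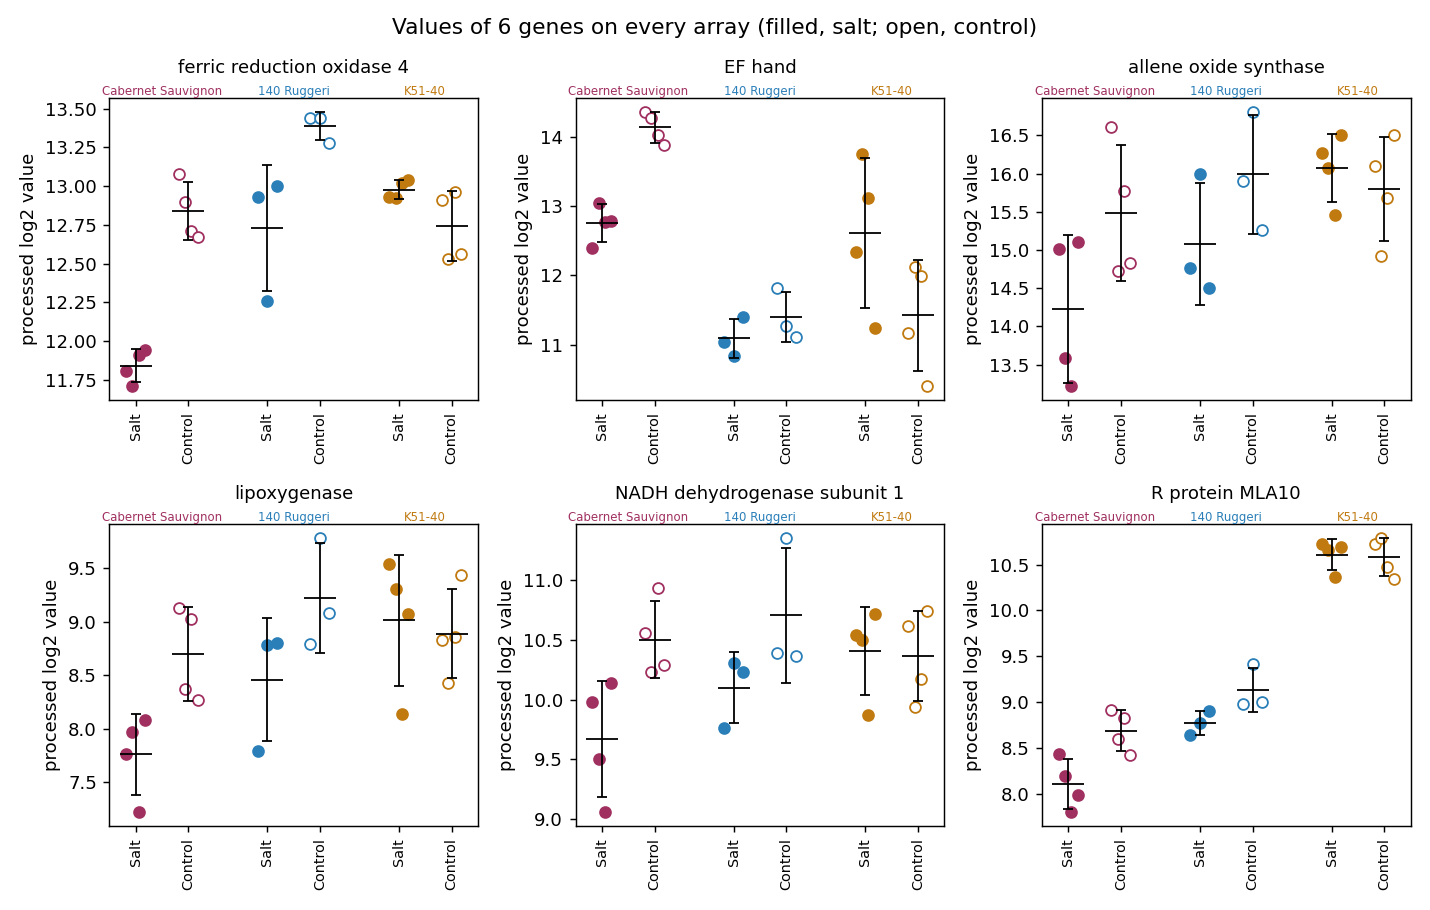
Processed log2 values of 6 genes on every array, with filled points for salt and open points for control; the bars give the mean and the SD over the 4 arrays of a group, or 3 in 140 Ruggeri. Ferric reduction oxidase 4 has separate groups in Cabernet Sauvignon (at most 11.94 for salt, at least 12.67 for control), allene oxide synthase overlaps in all varieties, and R protein MLA10 lies above 10.3 on all K51-40 arrays.

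The largest group with a shared annotation was that of proteins that are commonly encoded in mitochondrial or plastid genomes. The group was put together by annotation after the values were seen. Annotations came from the study's tables, mostly of genes that differ in these same samples, so its share in the set is not independent evidence. Among the genes for which an annotation was at hand, 19 were put in this group and 16 of them were in the set. They encoded NADH dehydrogenase subunits 1, 2 and 7, apocytochrome b, cytochrome oxidase subunits 1 and 2, ATPase subunits 8 and c, both copies of CcmF, a protein of cytochrome c assembly, and mitochondrial ribosomal protein S4. The plastid types were PsbC of photosystem II, NAD(P)H-quinone oxidoreductase subunit 6, NADH-plastoquinone oxidoreductase subunit I and 2 genes for the beta' subunit of the RNA polymerase. A probe cannot show whether the RNA came from the organelle genome or from a nuclear copy, and probes of near-identical copies may share targets.

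The median over these 16 genes was 9.86, 9.51, 8.99 and 9.99 on salt arrays, against 10.51, 10.00, 10.44 and 10.01 on control arrays in Cabernet Sauvignon. It was 9.59, 10.02 and 10.02 for salt and 9.86, 10.90 and 10.05 for control in 140 Ruggeri, and 10.30, 10.17, 9.72 and 10.48 for salt and 10.37, 9.84, 10.10 and 10.56 for control in K51-40. Salt and control arrays were apart in Cabernet Sauvignon, by as little as the step between 9.99 and 10.00, and overlapped in 140 Ruggeri and K51-40. Between arrays of the same number, which the labels do not pair, salt minus control of this median was -0.27, -0.88 and -0.03 in 140 Ruggeri. It was -0.65, -0.49, -1.45 and -0.02 in Cabernet Sauvignon and -0.07, 0.33, -0.38 and -0.08 in K51-40. The rule used these arrays, so nothing is read from the signs. The median salt differences of the 16 genes were -0.69 in Cabernet Sauvignon, -0.51 in 140 Ruggeri and 0.00 in K51-40, and with the intensity term -0.26, -0.19 and -0.14. Their r with intensity lay between -0.78 and -0.50. Without Cabernet Sauvignon salt 3 the median in that variety was -0.48, and without 140 Ruggeri control 2 that of 140 Ruggeri was -0.20.

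NADH dehydrogenase subunit 1 (GSVIVT01006663001, VIT_00s0396g00020, not placed on a chromosome), a core subunit of complex I, had 9.98, 9.50, 9.06 and 10.14 for salt and 10.56, 10.23, 10.94 and 10.29 for control in Cabernet Sauvignon, and 9.76, 10.31 and 10.23 for salt and 10.39, 11.36 and 10.37 for control in 140 Ruggeri. In K51-40 it had 10.54, 10.50, 9.87 and 10.72 for salt and 10.62, 9.94, 10.17 and 10.74 for control. The groups were apart in Cabernet Sauvignon and 140 Ruggeri, the only 1 of the 16 genes of which this held for both, so it is an exception among them. Its salt differences were -0.83, -0.61 and 0.04. The largest decrease of the 16 in Cabernet Sauvignon was that of NAD(P)H-quinone oxidoreductase subunit 6 (GSVIVT01022502001, VIT_08s0032g00630), with -0.95, -0.59 and -0.09, and its value in 140 Ruggeri was -0.10 without control 2.

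The 3 genes put in this group that were outside the set were PsbB, another gene for the polymerase subunit and subunit O of NADH-plastoquinone oxidoreductase. PsbB (GSVIVT01006503001) had salt differences of -0.70, -0.53 and -0.31, and was left out by the limit on K51-40. This polymerase gene (GSVIVT01021669001) had -0.54, -0.29 and 0.07 and missed the limit on 140 Ruggeri. Subunit O (GSVIVT01026485001) had -0.01, -0.10 and -0.08. In Arabidopsis it is encoded in the nucleus, so its annotation placed it in a group whose definition it does not meet. A wider list of mitochondrial and respiratory annotations held 45 genes, of which 8 were in the set, and the median salt differences over all 45 were 0.02, -0.09 and 0.04.

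Neighbours by identifier number occurred in the set. Of the 122 genes, 13 had identifiers at most 2 numbers apart from another of them, in 5 runs. The number for a set of this size drawn from all genes is not at hand, so nothing is read from this count. The longest run held NADH dehydrogenase subunit 2 (GSVIVT01004963001), CcmF (GSVIVT01004964001), NADH dehydrogenase subunit 7 (GSVIVT01004966001) and GSVIVT01004967001. A second CcmF gene (GSVIVT01006218001) lay in a run of 3, and PsbC lay beside NADH dehydrogenase subunit 1. Among the 70 genes of the set with a locus number, 20 (28.6%) were not placed on a chromosome, against 7.53% of all 3266 genes for which such a number was at hand. These numbers come from the same tables of the study, so nothing is read from the shares. The remaining 50 of the 70 genes were spread over 18 chromosomes.

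Leaf markers were examined because each plant carried a leaf. The 4 photosystem genes at hand were PsbB, PsbC, PSAF and LHCA3, and PsbC is itself 1 of the 122 genes. All 4 were lower on average in salt than in control in Cabernet Sauvignon and 140 Ruggeri (PSAF by less than the rounding in 140 Ruggeri, with 5.86 in both groups), and 3 of 4 were lower in K51-40. Their values summed on the linear scale were 3370 to 5160 for salt and 5950 to 8280 for control in Cabernet Sauvignon, 4040 to 5520 for salt and 5560 to 9730 for control in 140 Ruggeri, and 4280 to 7400 for salt and 5200 to 7430 for control in K51-40. The sum moved in the same direction as the 122 genes in Cabernet Sauvignon and 140 Ruggeri, but it contains PsbC, which the rule chose. It also contains PsbB, of the organelle type described above, so it is not separate from these genes. Its part in the result was not tested. The 4 phloem markers and the 4 markers of dividing cells had no gene in the set, and their median salt differences were 0.23, -0.06 and 0.31 and 0.02, -0.17 and 0.01.

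Disease resistance genes of the nucleotide-binding, leucine-rich repeat type, which act as receptors for pathogen molecules inside the cell, made up another group. R proteins annotated as MLA10, after a mildew resistance protein of barley, appeared 4 times, and 3 further genes were annotated as disease resistance proteins. GSVIVT01031992001 (MLA10, VIT_13s0064g01850, chromosome 13) had 8.43, 8.19, 7.80 and 7.98 for salt and 8.91, 8.60, 8.82 and 8.42 for control in Cabernet Sauvignon, and 8.64, 8.77 and 8.90 for salt and 8.98, 9.41 and 9.0 for control in 140 Ruggeri. In K51-40 it had 10.73, 10.66, 10.36 and 10.69 for salt and 10.73, 10.79, 10.48 and 10.34 for control. All K51-40 arrays lay far above those of the other varieties, with no shift by salt beyond the spread. Its salt differences were -0.59, -0.36 and 0.03.

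Other annotated members covered several processes, each with 1 to 5 genes. Exopolygalacturonase (GSVIVT01030020001), an enzyme that trims pectin of the cell wall, had salt differences of -0.95, -0.62 and 0.45. CYP76E3 (GSVIVT01027548001), a cytochrome P450, had -0.73, -0.71 and 0.29, and DELLA protein GAI1 (GSVIVT01011710001), a repressor of gibberellin responses, had -0.56, -0.66 and 0.32. Chalcone reductase (GSVIVT01011584001), named for an enzyme of flavonoid synthesis, had -0.66, -0.47 and 0.59. Its probes disagreed in size, with -0.23 and -1.08 in Cabernet Sauvignon and -0.01 and -0.93 in 140 Ruggeri. Among genes of protein turnover, polyubiquitin UBQ14 (GSVIVT01001969001) had -0.57, -0.44 and 0.12, and the ubiquitin ligase TRIP12 (GSVIVT01036822001) had -0.53, -0.50 and 0.07.

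The lists of pathway words, set against the 3266 annotated genes, held few members. There were 2 of 240 genes of membrane transport, 4 of 182 kinases (1 of them phosphoenolpyruvate carboxykinase, which the word matched), 3 of 56 disease resistance genes, 2 of 152 transcription factors, 1 of 73 cell wall genes, 2 of 92 phenylpropanoid and terpenoid genes, 3 of 155 genes of oxidation and reduction, 1 of 55 hormone genes, 5 of 96 genes of protein turnover, 4 of 72 genes of the nucleus and 0 of 4 clock genes. The 2 matches for membrane transport were the ATPase subunits 8 and c already named. The words also missed members. The MLA10 genes were not matched as disease resistance genes, nor allene oxide synthase, lipoxygenase and DELLA protein GAI1 as hormone genes. The counts for these 2 lists are thus below the number of such genes in the set. The annotated genes are those that the study listed as differing in these same samples, so the counts are not independent evidence. Of the 122 genes, 52 had no annotation at hand and 15 were annotated as unknown or without a hit, which leaves 55 with an informative one.

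A total of 9 of the genes were 0.5 or more above control in K51-40. In 3 of these all salt arrays lay above all control arrays, namely a heat shock protein binding protein (GSVIVT01001745001), GSVIVT01027797001 and GSVIVT01013153001. The share of all genes with such a gap is not at hand, so nothing is read from this count. The heat shock protein binding protein had 9.34, 8.58, 8.15 and 8.80 for salt and 7.99, 7.25, 7.76 and 7.91 for control in K51-40, a difference of 0.99. Its differences in Cabernet Sauvignon and 140 Ruggeri were -0.62 and -0.39, and with the intensity term -0.09 and 0.00. Within scan dates the K51-40 median of the 122 genes differed in sign, 0.28 for the 2 salt and 2 control arrays of the first date and -0.11 for the 2 and 2 of the second. In Cabernet Sauvignon it was -0.63 for the first date (2 salt and 3 control arrays) and -0.50 for the second (2 and 1). The 6 arrays of 140 Ruggeri carried the first date only.

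The strongest mean decrease of all was that of GSVIVT01004319001, which has no annotation at hand. It had 9.74, 10.00, 9.33 and 10.93 for salt and 11.61, 10.47, 11.26 and 11.10 for control in Cabernet Sauvignon, and 9.66, 11.64 and 9.92 for salt and 12.14, 11.84 and 10.61 for control in 140 Ruggeri. In K51-40 it had 12.03, 11.95, 10.61 and 12.21 for salt and 11.14, 10.14, 10.46 and 11.99 for control. The groups overlapped in every variety. Its differences were -1.11, -1.12 and 0.77. Another 5 genes without annotation were among the 10 with the lowest mean of both decreases. GSVIVT01010884001 had -1.07, -0.78 and 0.17, GSVIVT01011997001 had -0.90, -0.90 and 0.19, and GSVIVT01011595001 had -0.94, -0.68 and 0.18. GSVIVT01024841001 had -0.77, -0.85 and 0.18, and GSVIVT01021619001 had -0.82, -0.78 and 0.00. The salt and control arrays were apart in Cabernet Sauvignon for all 5 and in 140 Ruggeri for GSVIVT01011997001, GSVIVT01011595001 and GSVIVT01024841001. The r of the 5 genes with intensity lay between -0.88 and -0.60. Over the set, all salt arrays lay below all control arrays for 61 genes in Cabernet Sauvignon (5.19% of all genes), for 35 in 140 Ruggeri (6.73%) and for 0 in K51-40 (4.15%), and for 20 genes in both of the first varieties; the rule used these values, and nothing is read from the counts.

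At the limits, GSVIVT01023585001, annotated as a basic helix-loop-helix family protein, lay just inside with -0.5001 in Cabernet Sauvignon, and GSVIVT01021534001 just outside with -0.4995. In 140 Ruggeri an MLA10 gene (GSVIVT01020322001) was inside with -0.3018 and GSVIVT01020343001 outside with -0.2982. In K51-40, GSVIVT01023317001 was inside with -0.0948 and GSVIVT01001382001 outside with -0.1045. In all, 120 of the 122 genes were well above background in every group. GSVIVT01023317001 was not well above background on the arrays of 140 Ruggeri and the salt arrays of K51-40, and GSVIVT01033364001 on the arrays of Cabernet Sauvignon, so that their differences there are not read as fold changes.

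The varieties were also compared in level, averaged over salt and control, with limma and Benjamini-Hochberg adjustment over all 26241 genes, at an adjusted p of at most 0.05 and an absolute log2 difference of at least 0.5. K51-40 exceeded Cabernet Sauvignon for 44 of the 122 genes (36.1%) and was below it for 8 (6.56%), where 14.8% of all genes were higher and 15.5% lower (30.3% either way). The median difference was 0.40 for the 122 genes and 0.04 for all genes. These means take in the arrays that chose the genes, low salt arrays of Cabernet Sauvignon and 140 Ruggeri among them, so the counts are a description and nothing is read from their excess over all genes. The contrast was also made on each treatment alone, which the rule shaped as well. The rule favours genes with low salt and high control arrays in Cabernet Sauvignon and 140 Ruggeri. This tends to lower K51-40 against both on control arrays and to raise it on salt arrays. Calls on 1 treatment alone, here and below, are a description, and nothing is read from those gained or lost. On salt arrays the median of K51-40 minus Cabernet Sauvignon was 0.76, and on control arrays it was 0.02, against 0.04 over all genes in both. In a contrast of the control groups alone, added after seeing the data, 7 of the 122 genes were called higher and 14 lower in K51-40 (limma), where 15.2% and 15.6% of all genes were so called. Of the 44 genes, 9 had a difference of 0.5 or more on control arrays. With the intensity term 14 of the 122 genes were higher and 9 lower in K51-40.

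Against 140 Ruggeri, K51-40 was higher for 9 of the 122 genes (7.38%) and lower for 5 (4.1%), where 8.96% of all genes were higher and 9.36% lower (18.3% either way). The median difference was 0.07. On control arrays alone, where the rule favours high values of 140 Ruggeri, it was -0.24. There 6 genes were called higher and 16 lower (9.49% and 9.43% of all genes). With scanner values from which Cabernet Sauvignon control 3 was left out, 13 genes were higher and 6 lower. From the scanner files without that array, the median was -0.17 without batch correction and -0.20 with 75th percentile scaling, with 9 genes higher and 10 lower in both settings. 140 Ruggeri was above Cabernet Sauvignon for 28 genes (23%) and below it for 5 (4.1%), where 13.2% and 14.1% of all genes were so called (27.3% either way). On control arrays alone 15 were called higher and 6 lower (14% and 14.7% of all genes). Without the control 2 array of 140 Ruggeri, 15 genes were higher, and without Cabernet Sauvignon salt 3 or without 140 Ruggeri salt 2 there were 18. Probes were designed on Vitis vinifera transcripts, so that for the rootstocks of other species a mismatch under the probe and a lower level cannot be told apart.

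K51-40 differed from both other varieties in 1 direction for 9 genes, 7 higher and 2 lower. The share of all genes that differed from both is not at hand, so nothing is read from these counts. The MLA10 gene GSVIVT01031992001 had the largest such difference, with a mean of 10.60 for K51-40 against 8.39 for Cabernet Sauvignon and 8.95 for 140 Ruggeri. It was 2.20 ± 0.10 (SE) above Cabernet Sauvignon (limma adjusted p = 3.76e-14) and 1.65 ± 0.108 above 140 Ruggeri (limma adjusted p = 1.28e-10). These differences lay between 1.90 and 2.45 and between 1.46 and 1.94 under 37 alternative settings, and the lowest of each were those on control arrays alone. Of the 9 genes, 4 were called against both varieties on control arrays alone, this gene, another resistance gene and the 2 that were lower.

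The other resistance gene was of the CC-NBS-LRR class. This gene (GSVIVT01001399001) was higher in K51-40 than in Cabernet Sauvignon by 1.28 ± 0.116 (SE; limma adjusted p = 3.51e-09) and than in 140 Ruggeri by 0.82 ± 0.125 (limma adjusted p = 1.43e-05), and on control arrays alone by 0.98 and 0.52. Chalcone reductase was higher by 1.23 ± 0.148 and 1.08 ± 0.16 (limma adjusted p = 2.42e-07 and 9.6e-06). These differences of chalcone reductase were 1.86 and 1.61 on salt arrays, against 0.61 and 0.55 on control arrays, where the call against 140 Ruggeri was lost. The other genes higher in K51-40 encoded CDC20, which activates the complex that ends mitosis (GSVIVT01010777001, 0.70 and 0.86), a heat shock protein binding protein (GSVIVT01004732001, 0.77 and 0.68), the KOW domain protein KTF1, which in Arabidopsis takes part in RNA-directed DNA methylation (GSVIVT01038034001, 0.52 and 0.87), and an unannotated protein (GSVIVT01033266001, 0.60 and 0.96). The lower ones were a HEAT repeat protein (GSVIVT01002823001, -1.83 and -1.45) and GSVIVT01013153001 (-1.23 and -0.89). On control arrays alone these 2 genes had -2.18 and -1.72, and -2.11 and -1.44, and on salt arrays -1.47 and -1.17, and -0.36 and -0.33.

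The other 4 genes higher in K51-40 lost calls in some alternatives. On control arrays alone the differences from Cabernet Sauvignon and 140 Ruggeri were 0.44 and 0.65 for CDC20, 0.38 and 0.42 for the heat shock protein binding protein, 0.28 and 0.73 for KTF1 and 0.30 and 0.78 for GSVIVT01033266001. All 4 lost the call against Cabernet Sauvignon there, and the heat shock protein binding protein lost both. The difference of KTF1 from Cabernet Sauvignon lost its call in 10 of 37 alternatives, down to 0.27. They were the control arrays alone, no batch correction, normexp, the intensity term, a limit of 1, and leaving out Cabernet Sauvignon control 4, Cabernet Sauvignon salt 3 or K51-40 control 1, salt 1 or salt 4. That of GSVIVT01033266001 also lost its call with the intensity term. The call of the heat shock protein binding protein against 140 Ruggeri was lost without batch correction and with 75th percentile scaling too.

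Where the genes of jasmonate synthesis and the cell wall were called, they were called against Cabernet Sauvignon. Allene oxide synthase was 1.08 higher in K51-40 than in Cabernet Sauvignon (limma adjusted p = 0.00939), by 1.85 on salt arrays and 0.32 on control arrays, and the call was lost with the intensity term (0.45). Lipoxygenase was 0.72 higher (limma adjusted p = 0.00698), by 1.26 on salt and 0.19 on control arrays. Exopolygalacturonase was 0.78 higher (limma adjusted p = 0.00217), by 1.48 on salt and 0.08 on control arrays. The calls of lipoxygenase and exopolygalacturonase were lost with the intensity term too, at 0.36 and 0.47. All 3 calls were lost on control arrays alone and with 75th percentile scaling, and those of lipoxygenase and exopolygalacturonase without batch correction. None of the 3 genes passed the test between K51-40 and 140 Ruggeri.

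A further 3 genes were called against both varieties in opposite directions, again without a share over all genes to set beside them. The EF hand gene was lower in K51-40 than in Cabernet Sauvignon by 1.43 ± 0.278 (limma adjusted p = 0.000125) and higher than in 140 Ruggeri by 0.77 ± 0.301 (limma adjusted p = 0.0397). The call against 140 Ruggeri was lost in 13 of 37 alternatives, at differences as low as 0.02. They were the scanner values of all 22 arrays, a fit on the varieties compared alone, the intensity term, the control arrays alone, a limit of 1, and leaving out control 2 or 3 or salt 1 or 2 of 140 Ruggeri or control 2 or 3 or salt 2 or 3 of K51-40. The call against Cabernet Sauvignon was lost with the scanner values of all 22 arrays (-0.97, limma adjusted p = 0.0607). On salt arrays the differences of the EF hand gene were -0.14 and 1.52, and on control arrays -2.72 and 0.02. Its mean was 12.01 for K51-40, against 13.44 for Cabernet Sauvignon and 11.24 for 140 Ruggeri. An MLA10 gene (GSVIVT01020322001) was 0.93 above Cabernet Sauvignon and 0.67 below 140 Ruggeri in K51-40, and GSVIVT01006378001, which has no annotated hit, was 1.07 below and 1.42 above. The differences of both genes had the same signs on salt and on control arrays read alone. Of the 16 genes of organelle type, 1 was called higher in K51-40 than in Cabernet Sauvignon, 2 were called higher in 140 Ruggeri than in Cabernet Sauvignon, and none differed between K51-40 and 140 Ruggeri at these limits.

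**Figure D5:**
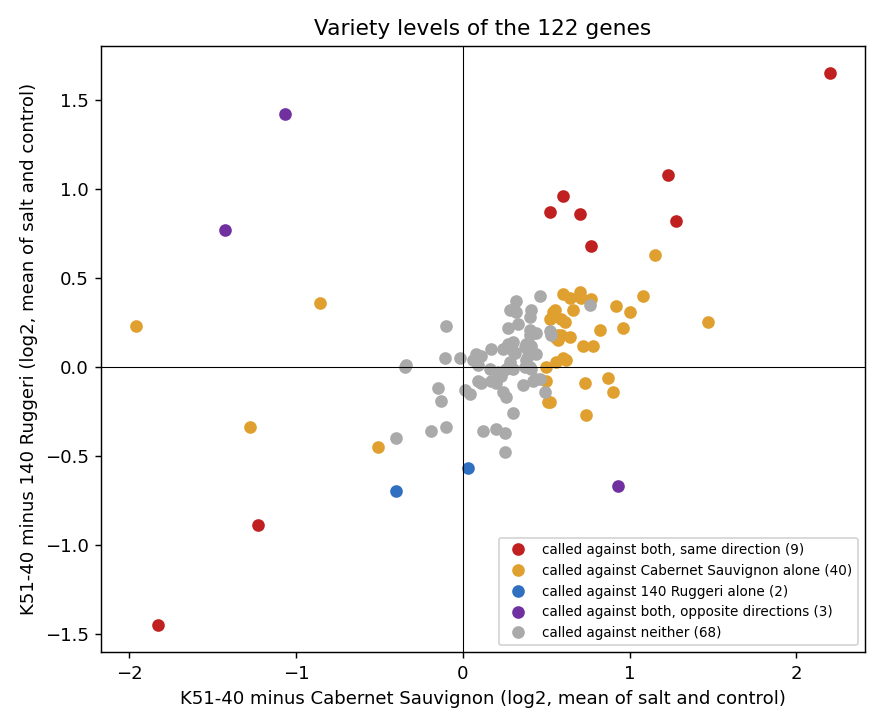
Each point is 1 of the 122 genes, placed by its difference between K51-40 and Cabernet Sauvignon (x axis) and between K51-40 and 140 Ruggeri (y axis), both log2 and averaged over salt and control. Colours give the limma calls: 9 genes against both varieties in the same direction, 40 against Cabernet Sauvignon alone, 2 against 140 Ruggeri alone, 3 in opposite directions and 68 against neither. These counts are a description, without a share over all genes. R protein MLA10 is the point at 2.20 and 1.65.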

How the data were processed

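Root RNA was measured on 22 one-colour Agilent arrays. The authors deposited log2 values per spot, which they had made from the median intensity by quantile normalization and ComBat correction for hybridisation date. The authors also deposited the scanner intensity and its background per spot, as extracted with Agilent Feature Extraction 10.7.3, and the software's processed intensity. Scan dates, read from the file headers, gave 2 batches, of which the second was 1 slide.

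Spots of a gene were averaged (61657 spots, 26241 genes). Salt and control arrays were compared within a variety without a test. Variety levels were tested with limma 3.58.1 in R 4.3.3 on a model with 1 mean per group, which treats all arrays as separate. The test was tried on simulated data for K51-40 minus Cabernet Sauvignon (26241 genes, 200 changed by 1 on the log2 scale) and recovered 99.5%. Gene names and loci came from the study's supplementary tables, which held 3266 of the genes. Genes named in the text were the 10 with the lowest mean of the Cabernet Sauvignon and 140 Ruggeri differences, up to 3 of each word list, those called against both other varieties, the 3 highest in K51-40 and those at the limits, and others are marked as chosen later or are members of the groups described. The genes and the lists were chosen with earlier results of these data known.

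Alternatives were scanner values with and without Cabernet Sauvignon control 3, no batch correction, 75th percentile scaling, normexp with an offset of 50, scan date, slide or replicate number as terms, only the varieties compared, probe means, single probes, genes above background, other thresholds and each array left out. Array intensity as a term and the control arrays alone were added after seeing the data. No batch correction, 75th percentile scaling and normexp started from the scanner files without Cabernet Sauvignon control 3. Signal over background was between 3.91 and 14.9 at the median spot of an array. Replicates were separate pools of plants.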

Additional observations from a re-analysis of the deposited data

Results flagged for a closer look

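In 45 named genes, the groups of 4 arrays were searched for 1 array far from the other 3. The gap to the nearest array was divided by the whole range of the group and set against Dixon's critical value. With 4 such groups for each gene and the 4 groups of the median of the 122 genes, 184 groups were searched. Of the 180 groups of single genes 6 passed and of the 4 groups of the median none, where chance alone would pass about 1 in 20. The groups of 3 arrays of 140 Ruggeri were not searched. In 5 genes it was the salt group of K51-40, where salt 3 was the low array. The ratio was 0.942 for CDC20 (GSVIVT01010777001), whose values were 8.59, 8.57, 8.22 and 8.57. It was 0.863 for GSVIVT01010884001 and 0.834 for GSVIVT01004319001, both without annotation. It was 0.859 for the anthocyanin acyltransferase gene GSVIVT01000472001, named for an enzyme that adds acyl groups to flower and fruit pigments, and 0.857 for the basic helix-loop-helix gene GSVIVT01023585001. In Cabernet Sauvignon it was 0.864 for chalcone reductase (GSVIVT01011584001), with 6.45, 6.37, 5.83 and 6.44 for salt, salt 3 again being the low array. K51-40 salt 3 and Cabernet Sauvignon salt 3 had intensities of 245 and 462 units, the highest of their groups, and were scanned on the same slide. The part of brightness in these values was not tested.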

How the results depend on the processing

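The number of genes meeting the limits depended on the processing. It was 97 with scanner values from which Cabernet Sauvignon control 3 was left out (87 of the 122 among them). With other processing, also without that array, it was 1918 with 75th percentile scaling (113), 156 without batch correction (118) and 74 with normexp (68). On the deposited values it was 31 with the intensity term (11) and 68 where each probe alone had to meet them. It ranged from 56 to 157 with 1 array left out, with 56 without Cabernet Sauvignon salt 3, 65 without 140 Ruggeri control 2 and 77 without Cabernet Sauvignon control 1. With 1 array left out, the median salt difference lay between -0.71 and -0.49 in Cabernet Sauvignon, between -0.60 and -0.30 in 140 Ruggeri and between -0.03 and 0.22 in K51-40, and with the intensity term it was -0.26 in Cabernet Sauvignon.

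For K51-40 minus Cabernet Sauvignon, 47 genes of the set were higher with the scanner values without that array. Also without that array, 25 were higher without batch correction and 29 with 75th percentile scaling. There were 14 with the intensity term, 7 at a log2 difference of 1, and 7 higher and 14 lower on control arrays alone. With 1 array left out there were 33 to 52 higher and 7 to 9 lower. Over all genes, 7951 were called, 12516 with 75th percentile scaling, 3105 at a difference of 1, 16842 by adjusted p alone and 7881 to 8041 with 1 array left out. The scaling moved the median of all genes to 0.17, against 0.04, and the share of higher calls to 59.5%, against 48.8%.

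For K51-40 minus 140 Ruggeri, 6 were lower with the scanner values without that array, and also without it 10 without batch correction and 10 with 75th percentile scaling. On control arrays alone 16 were lower. At a difference of 1, 3 were higher and 1 lower, and 8 were lower by adjusted p alone. With 1 array left out there were 8 to 9 higher and 4 to 7 lower. Over all genes, 4809 were called, 8834 with the scaling, 1319 at a difference of 1, 12675 by adjusted p alone and 4579 to 4949 with 1 array left out.

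For 140 Ruggeri minus Cabernet Sauvignon, 30 were higher with the scanner values without that array, and also without it 46 without batch correction and 44 with the scaling. There were 15 on control arrays alone, 7 with the intensity term, 4 at a difference of 1 and 43 by adjusted p alone. There were 8 lower with the scaling, 10 with the intensity term and 11 by adjusted p alone. With 1 array left out there were 15 to 35 higher (15 without 140 Ruggeri control 2) and 5 to 6 lower. Over all genes, 7154 were called, 11554 with the scaling, 2535 at a difference of 1, 15326 by adjusted p alone and 6983 to 7291 with 1 array left out. The cause was not tested for any of these shifts, apart from the stricter or looser limits, which change the counts by construction.

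With the replicate number as a block, 47 genes of the set were higher and 8 lower for K51-40 minus Cabernet Sauvignon (7956 over all genes), 9 and 7 for K51-40 minus 140 Ruggeri (5059), and 32 and 5 for 140 Ruggeri minus Cabernet Sauvignon (7374). Salt and control arrays with the same number correlated in their deviations at -0.413 to 0.385 in Cabernet Sauvignon, 0.216 to 0.393 in 140 Ruggeri and 0.328 to 0.493 in K51-40, so that every pair was over 0.1 in 140 Ruggeri and K51-40, whereas 1 of 4 was negative in Cabernet Sauvignon, that of the array with the unlike scanner file. The labels name no shared source, and the numbers were not taken to pair arrays. The block used terms for the number that all varieties share, so it does not model a pair within a variety. The variety tests treat the arrays of such a pair as separate. If pairs did share a source, the SE and p values of these tests would be too small. With the block, GSVIVT01004319001, GSVIVT01022502001 and GSVIVT01029923001 gained the call for K51-40 minus Cabernet Sauvignon, and GSVIVT01004964001 and GSVIVT01006218001 that for 140 Ruggeri minus Cabernet Sauvignon. The block leaves a mean salt difference as it is, since every number holds both treatments. For single named genes, 4721 values under an alternative kept their direction and side of the threshold, 119 gained and 153 lost the call, and 2 called differences of K51-40 from Cabernet Sauvignon changed sign on control arrays alone, to -0.093 for GSVIVT01001745001 and -0.10 for ferric reduction oxidase 4 (GSVIVT01028873001). The rule favours high control arrays in Cabernet Sauvignon, so nothing is read from these 2 changes of sign. The number of arrays, 3 or 4 per group, limits the precision. A planned search of promoters was not run.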
